A study of Rattus norvegicus with 9 samples.

Results

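Gene expression in the infarcted left ventricle was compared with that in the sham-operated left ventricle, in rats that received no drug. The comparison took all 3 rats of group MI and all 3 rats of group Sham, which were 6 of the 9 rats sequenced, and every gene that carried a name in the deposited table. Of 35843 genes deposited 32883 had a name, and 12625 of these were expressed highly enough to be tested. All animals were adult male Sprague-Dawley (SD) rats. In group MI the left anterior descending (LAD) coronary artery was tied off for good, so the muscle it feeds was never reperfused. Rats of group Sham went through the operation with the artery untied, and rats of both groups then received saline by gavage every day until hearts were taken on day 28. The labels name the tissue as heart and the methods of the study as left ventricle. The methods add that molecular work mainly used the border of the infarct, with the scar cut away, and the matching area of sham hearts, whereas its account of the sequencing calls the MI tissue infarct myocardium. How much scar, border and distant muscle went into each RNA sample was not given, so a change in the cell make-up of the sample and a change within cells cannot be told apart in these bulk data. Likewise fewer cells of a type and less RNA per cell cannot be told apart.

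A ligated artery kills the muscle it feeds. In the following days neutrophils and then macrophages clear the dead cells, fibroblasts turn into myofibroblasts and fill the gap with collagen, and within weeks this scar matures. The surviving cardiomyocytes enlarge under the added load, return to genes that are used in the fetal heart, and shift their fuel use from fatty acids towards glucose.

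The deposited values were FPKM, that is fragments scaled to gene length and to the depth of the library, a unit that allows levels of different genes to be compared within a rat. Expression was tested with limma on log2(FPKM + 1), a scale on which the change of lowly expressed genes is understated, and a gene was called when its Benjamini-Hochberg adjusted p was under 0.05 and its log2 fold change was over 1 in either direction. Values of single rats are given in the order rat 1, rat 2 and rat 3 of the group, group means with their SD and fold changes with their SE, for n = 3 rats a group. Where values of both groups are set against each other, those of group Sham come first. Among the 12625 named genes tested, 20.8% were called in either direction, 11.9% as higher and 8.93% as lower in group MI, and these shares are the background for the gene lists below. The median log2 fold change of all named genes tested was 0.02. The 3 rats of one group lay fully above or below the 3 rats of the other in 54.7% of the named genes tested. Among the called genes this share was 99.5%, so a lack of overlap in a called gene below adds little to its call.

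Libraries held between 13597239 and 17210909 reads that could be assigned to genes. Genes of the mitochondrial genome took 61.1%, 61.6% and 66.9% of these reads in Sham rats 1 to 3 and 15.4%, 7.07% and 19.1% in MI rats 1 to 3, so that other genes were read from 5702454 to 6570698 times in a Sham library and from 12635945 to 13171891 times in an MI library. When values were scaled to all reads instead, the median of all named genes shifted to a log2 fold change of 0.97, 6137 genes were called higher and 229 lower, and 96.4% of the calls were higher in place of 57.1%. The deposited FPKM thus held the typical gene at about the same level in both groups, every direction below is relative to that typical gene, and medians on the scale of all reads are given beside each negative list median that is printed. Between rats of one group, Spearman correlations of log2(FPKM + 1) were 0.924 to 0.964, against 0.729 to 0.855 between a Sham rat and an MI rat. The libraries are not stated to keep the strand, so reads of a gene and of an overlapping antisense gene cannot be told apart.

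Marker genes placed the tissue in the ventricle. The ventricular light chain gene Myl2 was at 97.9 ± 15.4 FPKM in group Sham and 94.9 ± 72.4 in group MI, whereas the atrial genes Myl7 (2.202 against 6.21), Sln (2.299 against 0.469) and Bmp10 (0.121 against 0.0547) were low in both groups. Of 11 tested genes of an atrial list 3 were higher, and these were Dkk3, Pam and Nr2f2, which other cells also express, while 1, the potassium channel gene Kcna5, was lower. In a skeletal muscle list 1 of 6 tested genes was called, namely Acta1, which the stressed heart also uses, and the defining genes Myog and Myod1 were at or near 0. Red cell genes stood apart in 1 sham library, since the summed FPKM of 11 erythroid genes was 301, 5991 and 747 in Sham rats 1 to 3 and 939, 1326 and 784 in MI rats 1 to 3. None of the 6 erythroid genes tested was called by limma with Benjamini-Hochberg adjustment, 0 of them passed an unadjusted p under 0.05 and 0 were called by voom on the recovered reads. Globin genes are near-identical copies of each other, so their single values are uncertain.

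Samples of group MI also differed among themselves. The mean log2(FPKM + 1) of 38 cardiomyocyte genes was 5.47, 5.996 and 5.86 in Sham rats 1 to 3 and 5.40, 4.25 and 6.18 in MI rats 1 to 3, and the level in MI rat 2 lay below those of the other 5 rats. The same rat was the highest of the 6 in the mean of the macrophage list (5.72, 6.21 and 5.65 in MI rats 1 to 3), the complement list (4.37, 5.25 and 4.47), the T and NK cell list (1.38, 3.17 and 2.01) and the B and plasma cell list (1.27, 3.86 and 2.54). Within group Sham, rat 1 was the highest in the macrophage list (4.45, 3.55 and 3.37) and in the myofibroblast and matrifibrocyte list (3.05, 1.86 and 2.25), and rat 2 in the proliferating cell list (1.84, 3.19 and 1.87). Values without single rats stand beside the calls and counts that changed most without them, and the part that the make-up of a sample had in them was not tested.

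**Figure D1:**
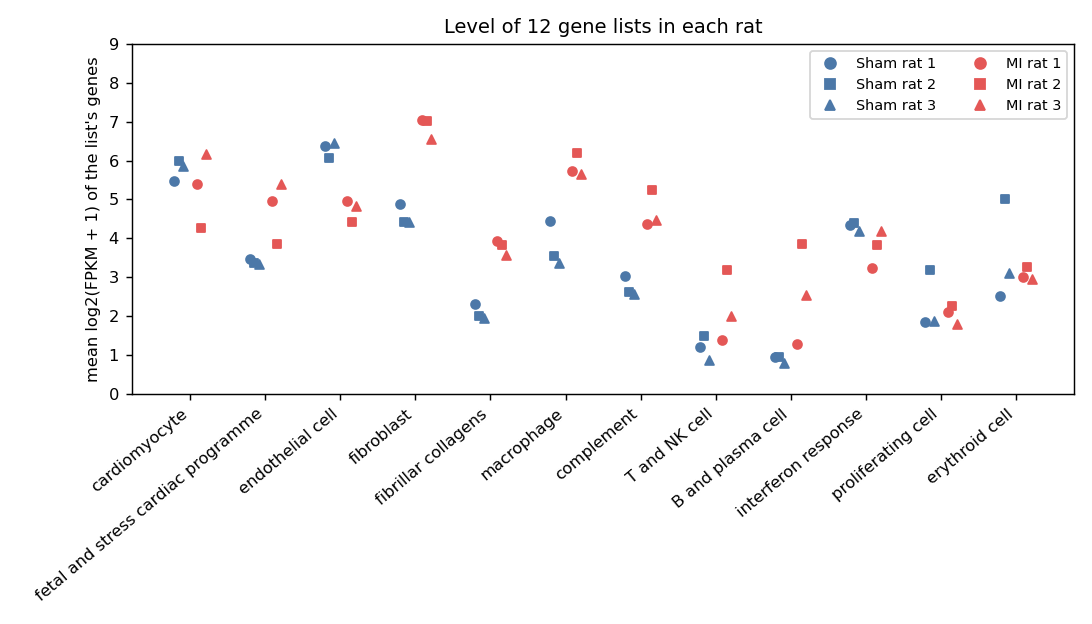
Mean log2(FPKM + 1) of 12 gene lists (vertical axis) in each of the 6 rats, blue for group Sham and red for group MI, with circles, squares and triangles for rats 1, 2 and 3. Fetal and stress programme, endothelial, fibroblast, fibrillar collagen, macrophage, complement and B and plasma cell lists separate all MI rats from all Sham rats. MI rat 2 (red square) is lowest of all in the cardiomyocyte list and highest in both lymphocyte lists. Sham rat 2 (blue square) is highest in the erythroid and proliferating cell lists.

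Most heart muscle genes were not called. Of 37 tested cardiomyocyte genes 8 were called lower, 2 higher and 27 not called, and their median log2 fold change was -0.35 (0.66 when scaled to all reads, against 0.97 for all genes, 0.15 without MI rat 2 and -0.90 without MI rat 3). The number of lower calls ran from 2 without Sham rat 2 to 10 without MI rat 3. Most of the genes that were lower belong to the adult contractile apparatus and its calcium store, among them Myh7b, Myh6, Tnni3, Ldb3, Hrc and Trdn, and Asb15, part of a ubiquitin ligase, was lower as well. Myh7b, a slow myosin gene with a microRNA in its intron, was at 27.8, 78.6 and 32.6 FPKM in group Sham and 4.46, 1.75 and 7.17 in group MI. The FPKM of Myh6, the fast adult myosin heavy chain, was 174, 321 and 329 in group Sham and 39.6, 25.2 and 109 in group MI, and that of Tnni3, the cardiac troponin I, was 2359.5, 3811 and 3767 against 716, 281 and 1352. For these 3 genes every MI rat lay below every Sham rat, with log2 fold changes of -3.10 ± 0.50 (SE), -2.43 ± 0.52 and -2.32 ± 0.55 and adjusted p-values of 0.00418, 0.0113 and 0.0157 by limma with Benjamini-Hochberg adjustment. The call of Tnni3 was lost without Sham rats 2 or 3 (log2 fold change -2.21 to -2.20).

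Actc1, the cardiac actin, was not called, at 633 ± 137 in group Sham and 1402 ± 1055 in group MI, and the FPKM values of Myl3 (1449 against 1531), Tnnt2 (2282 against 1495), Actn2 (84.2 against 105) and the oxygen store myoglobin, Mb (2187 against 2366), as means of group Sham and group MI, overlapped between the groups as well. These last 4 genes were chosen after their values were seen. The chaperone gene Hspb7 was called higher at 1.88 ± 0.56 (adjusted p = 0.0344 by limma with Benjamini-Hochberg adjustment), a call that was lost without Sham rats 1, 2 or 3 or MI rats 1 or 3 (log2 fold change 1.34 to 1.98). Ribosomal protein genes gave a further muscle-specific pair. Rpl3l, which replaces the common Rpl3 in the ribosomes of striated muscle, had 29.01, 43.2 and 45.8 FPKM in group Sham and 8.14, 7.52 and 19.02 in group MI, and its log2 fold change was -1.77 ± 0.35 (SE; adjusted p = 0.00839 by limma with Benjamini-Hochberg adjustment).

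Genes of the fetal and stress programme were higher or not called. Of 18 tested members 9 were called higher and every one had a positive log2 fold change, with a median of 1.33. The count ran from 5 without Sham rat 3 or MI rat 1 to 12 without MI rat 2. Nppa, which encodes atrial natriuretic peptide, was at 199.7, 96.5 and 65.9 FPKM in group Sham and 3741, 626 and 7169 in group MI. Its log2 fold change was 4.55 ± 0.87 (SE; adjusted p = 0.00739 by limma with Benjamini-Hochberg adjustment), and it was the member with the largest change. Nppb, the gene of brain natriuretic peptide, was at 69.1, 64.3 and 58.97 in group Sham and 484, 99.4 and 811 in group MI. All MI rats exceeded all Sham rats in both genes, and MI rat 2, the rat with the lowest cardiomyocyte list, was the lowest MI rat in both. The skeletal actin gene Acta1 (129, 57.6 and 66.9 in group Sham and 479.8, 143 and 1160.4 in group MI), the slow myosin gene Myh7 (58.9, 72.8 and 71.3 against 221, 95.002 and 489) and Xirp2, a gene of the intercalated disc (6.54, 4.28 and 5.38 against 44.9, 10.95 and 83.5), had the same order of MI rats. Log2 fold changes were 2.39 ± 0.69 for Nppb, 2.43 ± 0.72 for Acta1, 1.68 ± 0.53 for Myh7 and 2.50 ± 0.65 for Xirp2, with adjusted p-values of 0.0314, 0.0334, 0.0412 and 0.0213 by limma with Benjamini-Hochberg adjustment. Each of these 4 calls was lost without at least some single rats, that of Nppb without Sham rats 1, 2 or 3 or MI rats 1 or 3 (log2 fold change 1.76 to 2.44), that of Acta1 without Sham rats 2 or 3 or MI rats 1 or 3 (log2 fold change 1.71 to 2.35), that of Myh7 without Sham rats 1, 2 or 3 or MI rats 1 or 3 (log2 fold change 1.10 to 1.73) and that of Xirp2 without Sham rats 2 or 3 or MI rat 1 (log2 fold change 2.33 to 2.51). Fold changes stayed positive in each of those fits.

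The windows upstream of 3 of these stress genes and of the scar gene Postn are shown as examples of genes called higher, which were not picked by size of change. Each holds the 250 bases before the annotated start of the gene, read on the strand of the gene from 5′ to 3′, as given by RefSeq for build GRCr8. Capitals mark matches, on either strand, to TATAAA, to GATAA (the core bound by GATA factors), to CATTCC (the M-CAT core bound by TEAD factors) and to the CArG box bound by serum response factor. Of 33469 windows of the same length in the RefSeq table, 12.9% held TATAAA, 23.5% GATAA, 12.1% CATTCC and 1.5% a CArG box.
Nppa, chr5:163711934-163712183, plus strand: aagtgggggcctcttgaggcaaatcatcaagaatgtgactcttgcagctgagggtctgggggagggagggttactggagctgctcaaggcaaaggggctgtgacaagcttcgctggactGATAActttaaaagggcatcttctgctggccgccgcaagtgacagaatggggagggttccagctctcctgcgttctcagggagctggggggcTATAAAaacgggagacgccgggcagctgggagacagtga
Nppb, chr5:163699758-163700007, plus strand: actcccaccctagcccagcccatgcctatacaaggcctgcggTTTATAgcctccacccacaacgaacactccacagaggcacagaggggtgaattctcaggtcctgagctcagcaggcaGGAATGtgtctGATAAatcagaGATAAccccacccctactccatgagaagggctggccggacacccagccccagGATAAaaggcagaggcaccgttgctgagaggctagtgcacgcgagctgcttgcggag
Acta1, chr19:68784195-68784444, minus strand: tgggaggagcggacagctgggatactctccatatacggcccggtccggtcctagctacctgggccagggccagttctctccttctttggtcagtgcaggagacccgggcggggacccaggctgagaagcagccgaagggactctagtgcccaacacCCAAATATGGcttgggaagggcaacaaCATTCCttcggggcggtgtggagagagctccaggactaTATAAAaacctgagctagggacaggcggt
Postn, chr2:140677811-140678060, plus strand: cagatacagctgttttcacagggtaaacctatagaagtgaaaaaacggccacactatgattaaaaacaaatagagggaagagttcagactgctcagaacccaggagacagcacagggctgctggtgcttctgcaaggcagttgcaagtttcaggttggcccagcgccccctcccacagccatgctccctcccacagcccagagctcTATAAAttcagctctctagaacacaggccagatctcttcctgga
Nppa, Acta1 and Postn carried TATAAA 39, 29 and 44 bases before the start. Nppb held 3 matches to GATAA and 1 to CATTCC, and Acta1 held 1 CATTCC and 1 CArG box. A match describes the letters of the window and says nothing about binding of a factor in these hearts.

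Ratios between related genes are taken within a rat, so the library denominator does not enter the FPKM ratios printed. The permutation tests used log2 ratios of FPKM + 1, which the denominator enters through the added 1. The FPKM of Myh7 over that of Myh6 was 0.3395, 0.227 and 0.216 in Sham rats 1 to 3 and 5.58, 3.77 and 4.48 in MI rats 1 to 3. Myh6 was thus the more abundant myosin in every Sham rat and Myh7 in every MI rat. Acta1 over Actc1 was 0.138 ± 0.06903 in group Sham and 0.387 ± 0.0851 in group MI. For the ribosomal pair, Rpl3 over Rpl3l was 3.64 ± 1.31 against 22.97 ± 10.6. The two-sided exact permutation p-values of the log2 ratios were 0.1 for each of these pairs, the smallest value that 3 rats against 3 can give. The level of Myh7 varied several-fold among MI rats, whereas the ratio in MI rat 2 was close to that of the other MI rats.

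**Figure D2:**
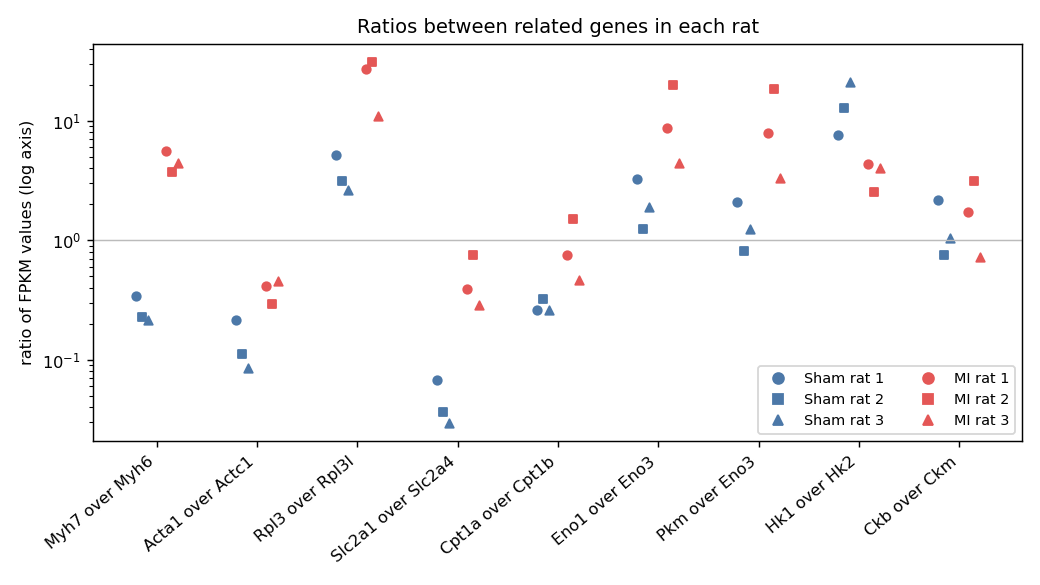
Ratio of the FPKM values of 9 pairs of related genes in each rat (vertical log axis), blue for group Sham and red for group MI, with circles, squares and triangles for rats 1, 2 and 3. The groups do not overlap in the first 8 pairs, Hk1 over Hk2 is the only one of them that is lower in group MI, and the ratio of the creatine kinase genes Ckb over Ckm overlaps between the groups.

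Calcium handling genes were called at shares near those of all named genes. Of 29 tested genes 3 were lower (10.3% against 8.93% of all named genes) and 2 higher (6.90% against 11.9%). The median log2 fold change was -0.14 (0.84 when scaled to all reads, 0.09 without MI rat 2 and -0.57 without MI rat 3), and lower calls ran from 1 without Sham rat 2 or MI rat 1 to 6 without MI rat 3. The lower genes were Hrc (78.3, 90.9 and 64.4 in group Sham and 18.96, 7.79 and 38.2 in group MI) and Trdn (13.7, 13.2 and 10.5 against 3.01, 1.59 and 7.47), both proteins of the junctional calcium store, and Cacnb2, a subunit of the L-type channel (4.23, 6.28 and 7.12 against 1.79, 0.969 and 3.43). Adjusted p-values by limma with Benjamini-Hochberg adjustment were 0.0171, 0.0207 and 0.0242, and the calls were lost without Sham rat 2 (log2 fold change -1.92) for Hrc, without Sham rats 1 or 2 or MI rat 1 (log2 fold change -1.54 to -1.51) for Trdn and without Sham rats 2 or 3 or MI rats 1 or 2 (log2 fold change -1.20 to -0.94) for Cacnb2. The sodium-calcium exchanger gene Slc8a1 was higher, at 1.65, 1.19 and 2.26 in group Sham and 5.71, 6.45 and 6.69 in group MI, with no overlap. Its log2 fold change was 1.45 ± 0.20 (SE), with an adjusted p of 0.00253 by limma with Benjamini-Hochberg adjustment. The core genes of the cycle did not pass. Atp2a2, the calcium pump of the store, had a log2 fold change of -0.10 ± 0.30, the release channel gene Ryr2 one of -0.31 ± 0.44 and the pump inhibitor gene Pln one of -0.50 ± 0.50 (SE), with adjusted p-values from 0.458 to 0.816 by limma with Benjamini-Hochberg adjustment.

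Ion channel genes were called lower more often than all named genes and higher at a similar share. Of 27 tested genes 6 were lower (22.2% against 8.93% of all named genes) and 3 higher (11.1% against 11.9%). Lower calls ran from 2 without Sham rats 2 or 3 to 7 without MI rat 3. The median log2 fold change was -0.26 (0.63 when scaled to all reads, -0.024 without Sham rat 1 and -0.62 without MI rat 3). Kcnd3, which carries the transient outward current, was at 4.27, 9.37 and 3.15 in group Sham and 0.569, 0.208 and 0.643 in group MI (log2 fold change -2.06 ± 0.36, SE). Kcna5, which carries an ultrarapid delayed current, was at 4.81, 13.997 and 11.2 against 2.86, 1.13 and 1.27 (-1.94 ± 0.40). The background potassium channel gene Kcnk3 was at 16.7, 16.8 and 13.3 in group Sham and 5.93, 3.72 and 8.92 in group MI. In these 3 genes no MI rat reached the level of a Sham rat. For Kcnd3 this was fixed in advance, since it passed the expression filter through group Sham alone. Adjusted p-values by limma with Benjamini-Hochberg adjustment were 0.005203, 0.00943 and 0.0118, and the call of Kcnk3 was lost without MI rat 2 (log2 fold change -0.995). Among the higher genes were the auxiliary subunit gene Kcne4 (1.52, 0.774 and 0.181 in group Sham and 9.05, 10.1 and 11.03 in group MI) and the inward rectifier gene Kcnj2 (0.455, 0.232 and 0.203 against 2.07, 1.59 and 2.05), a low level in both groups. Kcnj2 passed the expression filter through group MI alone. The gap junction gene Gja1, which couples ventricular myocytes, had a log2 fold change of -0.19 ± 0.23 (SE; adjusted p = 0.545 by limma with Benjamini-Hochberg adjustment). Kcnip2, the partner of Kcnd3, was below the expression filter, at 0.526, 1.19 and 1.07 FPKM in group Sham and 0.0611, 0.267 and 0.575 in group MI, with all MI rats but 1 below all Sham rats.

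In the list of adrenergic and cyclic AMP genes 5 of 25 were higher (20% against 11.9% of all named genes) and 2 lower (8% against 8.93%). Adcy7, an adenylyl cyclase of blood cells and fibroblasts, was at 1.905, 2.13 and 2.24 in group Sham and 18.6, 13.98 and 10.96 in group MI, and Rgs2, a brake on Gq signals, at 7.27, 3.48 and 2.22 against 25.6, 22.5 and 24.1. The phosphodiesterase genes Pde3b and Pde1a were higher as well (1.90 ± 0.26 and 1.94 ± 0.32, SE). Among the lower genes was the phosphodiesterase gene Pde2a (34.2, 31.2 and 32.9 in group Sham and 10.3, 13.5 and 22.1 in group MI). Adjusted p-values of these 5 genes lay between 0.00102 and 0.0145 by limma with Benjamini-Hochberg adjustment, and the call of Pde2a (-1.11) was lost without MI rat 1 (log2 fold change -0.88). The beta-1 receptor gene Adrb1, the main beta receptor of the heart muscle, was low in both groups, at 1.44 ± 1.49 against 1.77 ± 0.8595.

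In fatty acid uptake and oxidation 8 of 33 tested genes were lower and the others were not called, with a median log2 fold change of -0.40 (0.53 when scaled to all reads, -0.18 without Sham rat 2 and -0.085 without MI rat 2). The count ran from 5 without Sham rat 3 to 9 without MI rats 1 or 3. Acacb, which makes the malonyl-CoA that restrains fatty acid entry into mitochondria, was at 12.6, 47.7 and 21.3 in group Sham and 2.75, 1.29 and 3.96 in group MI. The lipases Lipe, which frees stored fat (61.3, 93.7 and 78.97 against 18.6, 10.3 and 14.97), and Lpl, which frees fatty acids at the capillary wall (324, 523 and 436 against 163, 58.8 and 135), were lower without overlap. Their log2 fold changes were -2.81 ± 0.49, -2.35 ± 0.25 and -1.93 ± 0.39 (SE), with adjusted p-values of 0.00525, 0.001304 and 0.00864 by limma with Benjamini-Hochberg adjustment. The electron carrier gene Etfb was lower at -1.58 ± 0.40 (SE), a call lost without Sham rats 2 or 3 (log2 fold change -1.49 to -1.39). Cpt1b, the muscle form of the enzyme that admits fatty acids to mitochondria, was at 18.3, 42.03 and 22.4 in group Sham and 16.6, 5.45 and 21.9 in group MI, which overlapped (adjusted p = 0.169 by limma with Benjamini-Hochberg adjustment), and the liver form Cpt1a over Cpt1b had a ratio of 0.263, 0.326 and 0.259 in Sham rats 1 to 3 and 0.753, 1.51 and 0.468 in MI rats 1 to 3.

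For glucose use 7 of 40 tested genes were higher (17.5% against 11.9% of all named genes) and 5 lower (12.5% against 8.93%). Lower calls ran from 2 without Sham rat 3 to 6 without MI rat 3. Pgam2, the muscle phosphoglycerate mutase, was at 307, 285 and 504 in group Sham and 86.5, 29.3 and 87.7 in group MI. Pfkfb1 (3.48, 4.19 and 5.17 against 0.367, 0.115 and 0.343) and Pfkfb2 (5.51, 7.54 and 7.83 against 1.35, 1.59 and 1.64), which set the level of the activator of phosphofructokinase, were lower in every MI rat than in every Sham rat. Pfkfb1 passed the expression filter through group Sham alone, so its lack of overlap was fixed in advance. The insulin-responsive transporter gene Slc2a4 was at 43.999, 45.5 and 47.6 in group Sham and 17.2, 8.496 and 26.2 in group MI (log2 fold change -1.48 ± 0.35, SE; adjusted p = 0.0162 by limma with Benjamini-Hochberg adjustment), and its call was lost without Sham rat 3 (log2 fold change -1.45). The basal transporter gene Slc2a1 was at 2.99, 1.65 and 1.402 in group Sham and 6.77, 6.401 and 7.53 in group MI, and the hexokinase gene Hk2 at 2.37, 1.398 and 0.815 against 6.58, 8.33 and 8.11. With Slc16a1, a lactate and ketone carrier (1.42), and Pdha1, a subunit of pyruvate dehydrogenase (1.33), these were the highest of the called genes of the list, and their adjusted p-values lay between 0.00264 and 0.0126 by limma with Benjamini-Hochberg adjustment. Slc2a1 over Slc2a4 was 0.0679, 0.0363 and 0.0295 in Sham rats 1 to 3 and 0.393, 0.753 and 0.287 in MI rats 1 to 3, with an exact permutation p of 0.1. The enolase ratio Eno1 over Eno3 was 2.14 ± 1.03 against 11.1 ± 8.11, and Hk1 over Hk2 was 13.8 ± 6.72 against 3.64 ± 0.982. Whether these shifts arose in muscle or from more cells of other types was not tested.

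The remaining fuel lists held at most 2 calls each. Lower shares were 10% in the energy shuttle and 13.3% in the biogenesis list, against 8.93% of all named genes. Higher shares were 10% in the branched-chain list and 33.3% in the ketone list, against 11.9%. None of 18 tested genes of the TCA cycle was called by limma with Benjamini-Hochberg adjustment, 3 were higher and 1 lower at an unadjusted p under 0.05, and 0 were called by voom on the recovered reads. Their median log2 fold change was -0.03 (1.07 when scaled to all reads, 0.21 without MI rat 2 and -0.28 without MI rat 3), and Sdhb and Mdh2, chosen after their values were seen, were at -0.47 and -0.02. The energy shuttle had 1 lower gene in 10, the mitochondrial creatine kinase gene Ckmt2, at 385, 604 and 609 in group Sham and 143, 33.3 and 132 in group MI (-2.59 ± 0.54, SE; adjusted p = 0.0103 by limma with Benjamini-Hochberg adjustment). Among 15 regulators of mitochondrial biogenesis Rxrg (-1.18) and Tfb2m (-1.09) were lower, and these calls were lost without Sham rats 1, 2 or 3 or MI rats 1 or 2 (log2 fold change -1.22 to -0.86) for Rxrg and without Sham rat 2 or MI rat 2 (log2 fold change -0.97 to -0.91) for Tfb2m. Of 20 genes of branched-chain amino acid breakdown 2 were higher: Bcat1, the cytosolic aminotransferase of non-muscle cells, at 3.01, 1.52 and 1.38 in group Sham and 32.3, 18.6 and 16.7 in group MI, and Acadsb (1.11), whose call was lost without Sham rat 2 or MI rats 2 or 3 (log2 fold change 0.91 to 1.06). In ketone body use 2 of 6 genes were higher, among them Slc16a1, and the count ran from 1 without Sham rats 1 or 3 or MI rat 1 to 3 without MI rat 2.

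Endothelial genes were lower in most cases. Of 21 tested endothelial genes 15 were lower, 71.4% against 8.93% of all named genes, and the median log2 fold change was -1.51 (-0.44 when scaled to all reads, against 0.97 for all genes). Fabp4, a fatty acid binding protein of capillary endothelium, was at 4025, 5575 and 3923 in group Sham and 712, 171 and 430.1 in group MI. Car4, a carbonic anhydrase on the capillary surface, was at 55.1, 71.6 and 146 in group Sham and 3.14, 2.26 and 1.92 in group MI, and Gpihbp1, the anchor of lipoprotein lipase, at 97.4, 226 and 102 against 41.3, 11.2 and 13.5. Rgcc, also a gene of capillary endothelium, was at 276, 421 and 421 against 82.6, 24.9 and 62.8. The groups were apart in all 4 genes, with log2 fold changes of -3.57 ± 0.49, -4.63 ± 0.35, -2.75 ± 0.53 and -2.83 ± 0.43 (SE) and adjusted p-values from 0.000953 to 0.00728 by limma with Benjamini-Hochberg adjustment. None of the 4 lost its call when 1 rat was left out.

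General endothelial genes were lower by less, as in the examples Cdh5, the endothelial cadherin (-1.42), and Kdr, the receptor of VEGF-A (-1.91). Others were not called, such as Vwf, the von Willebrand factor of larger vessels (-0.19), Eng (-0.75) and Ptprb (0.00). These 5 genes were chosen after their values were seen. Rbp7, a retinol binding protein that is also found in heart capillaries, was in no list and had the largest fall among the genes named for size of change, at 188, 469 and 186 FPKM in group Sham and 20.3, 2.84 and 9.798 in group MI (-4.73 ± 0.64, SE; adjusted p = 0.00246 by limma with Benjamini-Hochberg adjustment).

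Angiogenic factors did not move in one direction. In the list of hypoxia and angiogenic genes 6 of 26 were higher and 2 lower, and the higher count ran from 3 without Sham rat 2 to 7 without Sham rat 1 or MI rat 2. Vegfa, the main endothelial growth factor, was at 142, 238 and 173 in group Sham and 30.6, 24.4 and 30.6 in group MI, and Nos3, the endothelial nitric oxide synthase, at 56.5, 53.4 and 70.6 against 15.1, 9.07 and 14.7. Both were lower without overlap, by log2 fold changes of -2.62 ± 0.22 and -2.15 ± 0.22 (SE; adjusted p = 0.000953 and 0.00125 by limma with Benjamini-Hochberg adjustment). Vegfd, a lymphatic growth factor, was higher, at 5.88, 6.06 and 3.17 in group Sham and 40.6, 26.6 and 24.99 in group MI, as was Thbs1, an inhibitor of angiogenesis and activator of TGF-beta, at 5.41, 0.933 and 4.01 against 33.1, 20.3 and 14.6. Angpt2, which loosens vessel walls (1.14), and the endothelin receptor gene Ednrb (1.12) were higher by less, and lost their calls without Sham rat 2 (log2 fold change 0.92) for Angpt2 and without Sham rat 2 or MI rats 1 or 3 (log2 fold change 0.93 to 1.04) for Ednrb.

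Lymphatic endothelial genes were higher. Of 8 tested genes 6 were higher and all had positive log2 fold changes, with a median of 2.12. Mmrn1, a multimerin of lymphatic vessels, was at 5.08, 4.86 and 3.92 in group Sham and 16.7, 34.8 and 42.7 in group MI, and Pdpn, podoplanin, at 7.02, 3.05 and 3.13 against 15.4, 37.3 and 18.1. Lyve1 was at 17.05, 22.2 and 7.51 in group Sham and 48.6, 82.6 and 71.1 in group MI, and Mrc1 at 8.25, 7.57 and 3.95 against 44.6, 36.8 and 20.9, but resident macrophages express both of these as well. The transcription factor gene Prox1, the most specific of the list, was at 0.647, 0.713 and 0.942 in group Sham and 1.45, 2.43 and 2.74 in group MI, with an adjusted p of 0.0277 by limma with Benjamini-Hochberg adjustment at a log2 fold change of 0.84, under the fold threshold. Prox1 passed the expression filter through group MI alone. Adjusted p-values of Mmrn1 and Pdpn were 0.00245 and 0.00619 by limma with Benjamini-Hochberg adjustment.

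Vessel wall cells gave a mixed picture. Of 19 pericyte and smooth muscle genes 6 were higher and 2 lower, and the higher count ran from 3 without Sham rat 2 or MI rat 1 to 5 without Sham rat 3 or MI rats 2 or 3. Rgs5, a pericyte gene, was at 46.6, 36.7 and 36.9 in group Sham and 225, 163 and 165 in group MI, a log2 fold change of 2.17 ± 0.18 (SE; adjusted p = 0.000953 by limma with Benjamini-Hochberg adjustment). Another pericyte gene, Higd1b, was lower, at 36.2, 41.2 and 33.9 against 17.7, 8.67 and 19.9, and lost its call without MI rat 2 (log2 fold change -0.94). Smtn, smoothelin, was at 63.7, 102 and 82.3 in group Sham and 28.97, 15.8 and 24.1 in group MI (-1.82 ± 0.26, SE). Acta2, the actin of smooth muscle and of active myofibroblasts, was at 513, 118 and 437 in group Sham and 272, 219 and 198 in group MI (adjusted p = 0.591 by limma with Benjamini-Hochberg adjustment), so that its range in group MI fell within that of group Sham.

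**Figure D3:**
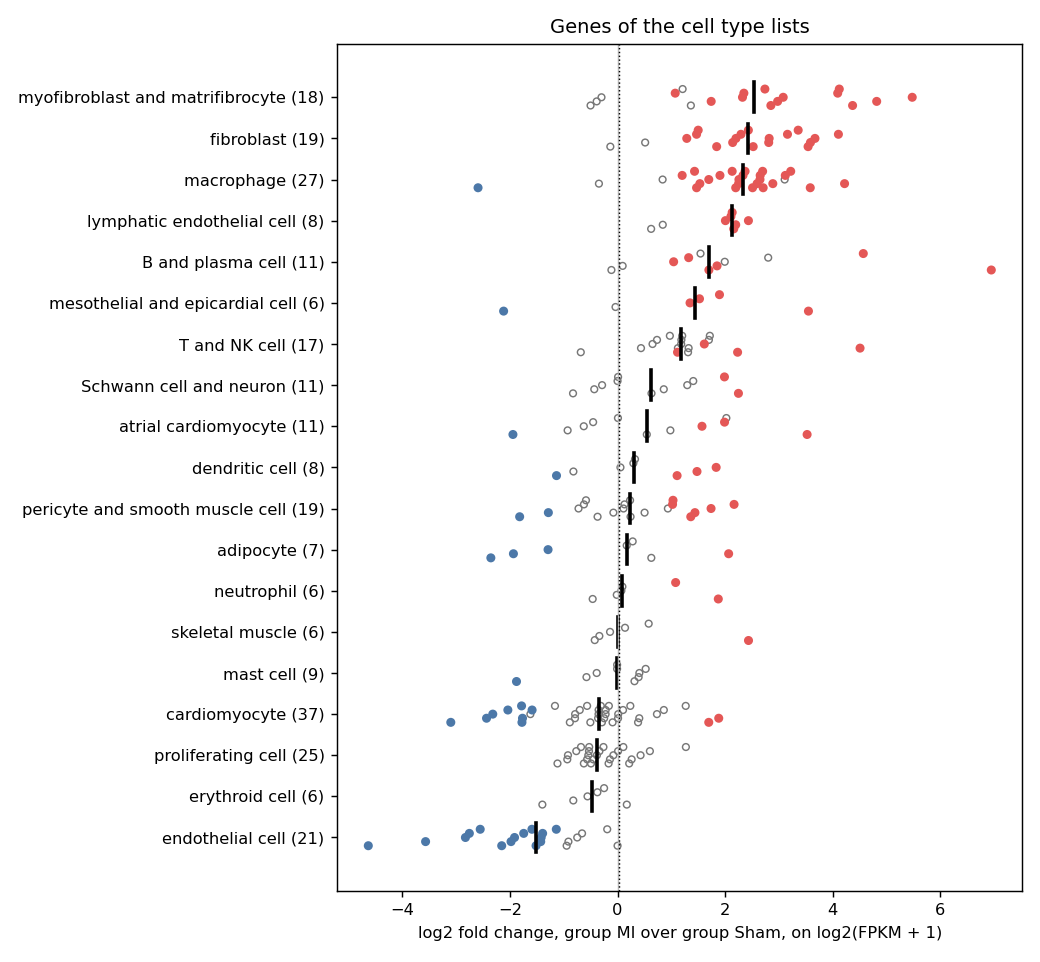
Log2 fold change, group MI over group Sham on log2(FPKM + 1), of every tested gene in 19 cell type lists (horizontal axis), with the number of genes tested in brackets. Red and blue points were called higher and lower, open points were not called, black bars are list medians and the dotted line is the median of all named genes tested (0.02). Fibroblast, myofibroblast, macrophage and lymphatic lists have medians above 2, and the endothelial list has the lowest median (-1.51).

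Fibroblast genes rose in nearly every case. Of 19 tested fibroblast genes 17 were higher, 89.5% against 11.9% of all named genes, with a median log2 fold change of 2.43. Pi16, a gene of fibroblasts in the vessel sheath, was at 38.2, 11.1 and 22.2 in group Sham and 437, 424 and 299 in group MI, and the surface antigen gene Thy1 at 4.46, 1.32 and 2.31 against 57.7, 45.8 and 30.4. Pdgfra, the receptor that marks resident fibroblasts, was at 6.85, 5.22 and 5.63 in group Sham and 58.5, 46.5 and 38.4 in group MI. The lowest MI rat exceeded the highest Sham rat several-fold in these 3 genes, and log2 fold changes were 4.10 ± 0.41, 3.67 ± 0.36 and 2.81 ± 0.19 (SE; adjusted p = 0.00111, 0.00106 and 0.000953 by limma with Benjamini-Hochberg adjustment). The members that were not called were Vim (-0.13), which endothelial cells also express, and the activation marker Fap (0.51).

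Among 18 tested genes of myofibroblasts and of the matrifibrocytes that hold a mature scar 13 were higher, with a median of 2.54. Postn, periostin, the mark of activated fibroblasts, was at 27.4, 2.38 and 1.16 in group Sham and 196, 251 and 92.3 in group MI (4.82 ± 0.92, SE), where the value of Sham rat 1 was several times those of the other Sham rats. Sfrp2, a Wnt antagonist, was at 2.24, 3.29 and 0.824 in group Sham and 133, 228 and 72.3 in group MI (5.48 ± 0.46), and Cthrc1, a collagen triple helix protein, at 1.49, 0 and 0.2802 against 31.2, 39.2 and 11.97 (4.12 ± 0.50). Comp, the cartilage oligomeric matrix protein that marks matrifibrocytes, was at 1.97, 0.312 and 1.62 against 36.3, 16.2 and 8.58 (3.08 ± 0.52). Adjusted p-values of these 4 genes were 0.00744, 0.000953, 0.00173 and 0.00497 by limma with Benjamini-Hochberg adjustment. Thbs4 had the same direction, at 12.5, 0 and 1.13 in group Sham and 169, 18.1 and 77.1 in group MI (4.37), with a call that was lost without Sham rats 2 or 3 or MI rats 1 or 3 (log2 fold change 3.56 to 4.22). The contractile genes Acta2 and Tagln of the same list were not called, the latter at -0.50.

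Collagen genes rose steeply. Of 17 tested genes of fibrillar and associated collagens 13 were higher and 2 lower, with a median log2 fold change of 2.56. Col1a1 was at 48.996, 13.7 and 14.3 in group Sham and 1012, 1393 and 650.2 in group MI, and its partner chain gene Col1a2 at 8.904, 6.66 and 2.46 against 185, 167 and 117. Col3a1, the collagen that comes first in a healing wound, was at 189.7, 109 and 76.02 in group Sham and 2817, 3824 and 1840.3 in group MI and was the most abundant of these genes in both groups. Log2 fold changes were 5.44 ± 0.51, 4.60 ± 0.39 and 4.53 ± 0.39 (SE), with adjusted p-values of 0.00103, 0.000953 and 0.000953 by limma with Benjamini-Hochberg adjustment. Col1a1 over Col3a1 was 0.258, 0.126 and 0.188 in Sham rats 1 to 3 and 0.359, 0.364 and 0.353 in MI rats 1 to 3, nearly the same value in every MI rat, with an exact permutation p of 0.1. Col8a2, a short-chain collagen, was at 1.07, 0.209 and 0.0541 in group Sham and 41.8, 15.1 and 21.4 in group MI (4.17 ± 0.41, SE). The lower genes were Col11a2 (-1.13) and Col27a1 (-1.01), both at low levels, and the latter lost its call without Sham rat 2 or MI rat 2 (log2 fold change -0.86 to -0.78).

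Proteins that fold, cut and link collagen followed. In the list of collagen processing and crosslinking 15 of 25 genes were higher (median 1.12). Loxl1, which links elastin and collagen, was at 25.6, 8.19 and 10.7 in group Sham and 186, 230.2 and 104 in group MI. Ctsk, a protease that degrades collagen inside cells (10.5, 8.67 and 5.53 against 112, 106 and 64.9), and Mrc2, the receptor that takes collagen up (3.11, 3.17 and 2.51 against 40.6, 31.6 and 25.01), rose together with Adamts2, which trims procollagen (6.53, 6.82 and 3.13 against 67.96, 57.1 and 36.7). Lox, the main lysyl oxidase, was at 7.195, 1.803 and 3.38 in group Sham and 42.99, 53.6 and 14.7 in group MI. These 5 genes had adjusted p-values between 0.000953 and 0.007504 by limma with Benjamini-Hochberg adjustment.

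Other matrix genes were mostly higher as well. Of 9 tested proteoglycan genes 7 were higher (median 2.42), and Bgn, biglycan, was at 178, 53.99 and 81.3 in group Sham and 1577, 920.5 and 803 in group MI and Lum, lumican, at 50.03, 19.8 and 28.9 against 404, 556 and 242. Elastic fibre genes were higher in 13 of 15 (median 2.04), with Eln, elastin, at 47.9, 21.8 and 31.3 against 422, 313 and 197 and Fbln1, fibulin-1, at 19.8, 10.6 and 9.17 against 264, 283 and 172. Fbn1, which forms the scaffold for elastin and stores TGF-beta, was at 17.2, 9.27 and 12.5 in group Sham and 133, 165 and 63.7 in group MI. For these 5 genes the lowest value of group MI was several times the highest of group Sham, and adjusted p-values lay between 0.000953 and 0.00217 by limma with Benjamini-Hochberg adjustment. Matricellular proteins, which signal from the matrix rather than bear load, were higher in 19 of 25 genes and lower in 1 (median 2.35). Ccn5 was at 5.93, 0.701 and 1.82 in group Sham and 313, 247 and 148 in group MI, a log2 fold change of 6.14 ± 0.52 (SE; adjusted p = 0.000953 by limma with Benjamini-Hochberg adjustment), the next largest rise among the genes named for size of change after that of Jchain. The adhesive protein gene Fn1 was at 22.3, 9.36 and 10.6 against 116, 220.0 and 51.95 (2.98 ± 0.54), and Vtn, vitronectin, was the 1 gene that was lower (-1.26 ± 0.16).

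The basement membrane list held 6 higher genes and 1 lower gene of 19 tested (median 0.67). Nid1, nidogen, was at 24.5, 27.5 and 27.9 in group Sham and 133, 140.1 and 91.5 in group MI (2.13 ± 0.19, SE), and the laminin chain genes Lamc1 (1.81) and Lama2, the muscle laminin (1.38), rose as well. Agrn, agrin, was lower, at 47.7, 56.3 and 56.03 in group Sham and 21.05, 15.6 and 19.9 in group MI (-1.46 ± 0.16). Adjusted p-values of the 4 genes lay between 0.000984 and 0.00662 by limma with Benjamini-Hochberg adjustment. Of 23 matrix proteases and inhibitors 12 were higher and 2 lower. The gelatinase gene Mmp2 was at 40.3, 21.9 and 21.2 in group Sham and 349, 515 and 211 in group MI, its activator Mmp14 at 13.96, 5.87 and 6.896 against 64.9, 149 and 48.6 and the inhibitor Timp2 at 109, 62.7 and 76.2 against 637, 656 and 427. Timp4, another inhibitor of the family, moved the other way, from 65.05, 103 and 94.3 in group Sham to 12.9, 5.39 and 11.99 in group MI (-3.05 ± 0.33, SE; adjusted p = 0.00135 by limma with Benjamini-Hochberg adjustment). Timp1 was at 103, 37.1 and 33.5 against 292, 140.0 and 133, where Sham rat 1 stood above the other Sham rats, and its call (1.78) was lost without Sham rats 2 or 3 or MI rat 1 (log2 fold change 1.41 to 1.56).

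TGF-beta, the signal best known for driving scar formation, was measured at its ligands, receptors and secreted inhibitors. Of 29 TGF-beta and BMP genes 12 were higher and 2 lower (median 0.73, and 0.47 without Sham rat 2). Among ligands, Tgfb3 was at 21.5, 17.6 and 14.5 in group Sham and 123, 71.1 and 88.6 in group MI and Tgfb2 at 3.298, 2.53 and 3.74 against 13.7, 10.2 and 16.8, whereas Tgfb1, the best known of them, was at 58.04, 36.6 and 49.9 against 71.5, 73.9 and 63.5 and did not pass (0.54 ± 0.19, SE; adjusted p = 0.0589 by limma with Benjamini-Hochberg adjustment). The receptor gene Tgfbr2 was at 10.3, 4.48 and 8.73 in group Sham and 40.2, 72.8 and 48.01 in group MI. Binding proteins of the family, Fstl1 (2.81 ± 0.34) and Fst, follistatin (2.37 ± 0.52), rose too. Acvrl1, an endothelial receptor of BMP9, was lower (-1.24 ± 0.14), and so was Id1, a common target of BMP signals, at 486, 363 and 370.1 in group Sham and 176, 111 and 182 in group MI (-1.40 ± 0.24). Adjusted p-values of the 7 genes called here lay between 0.00123 and 0.01196 by limma with Benjamini-Hochberg adjustment.

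Wnt genes were higher in 11 of 21 and lower in 1, and the higher count ran from 6 without MI rats 1 or 2 to 11 without Sham rat 1. The leading members were secreted antagonists. Sfrp1 was at 2.65, 0.726 and 1.55 in group Sham and 16.9, 21.98 and 17.5 in group MI and Dkk3 at 5.32, 5.23 and 4.24 against 125, 42.2 and 56.7, and the receptor gene Fzd1 was at 1.91, 0.952 and 1.65 against 18.5, 17.8 and 14.6. Wif1, another antagonist, was lower, at 4.39, 2.52 and 3.95 against 0.877, 0.404 and 0.791. Their log2 fold changes were 2.96 ± 0.28, 3.52 ± 0.37, 2.85 ± 0.20 and -1.44 ± 0.24 (SE), with adjusted p-values from 0.000953 to 0.00481 by limma with Benjamini-Hochberg adjustment. Wif1 fell below the expression filter when any Sham rat was left out. In the IGF system 5 of 9 genes were higher and 1 lower. Igf1 was at 16.98, 9.66 and 5.66 in group Sham and 57.3, 104 and 55.9 in group MI, and the binding protein genes Igfbp4 (3.05 ± 0.43), Igfbp6 (2.61 ± 0.50) and Igfbp3 (2.33 ± 0.39) rose with it, while Igf2 was at 35.2, 28.7 and 30.1 against 12.1, 10.1 and 14.9 (-1.28 ± 0.18). Adjusted p-values of these 5 genes were between 0.00253 and 0.00724 by limma with Benjamini-Hochberg adjustment.

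For the renin-angiotensin-aldosterone system 8 of 17 genes could be tested. Agtr1a, the receptor of angiotensin II, was at 1.58, 0.803 and 0.832 in group Sham and 10.4, 24.1 and 11.9 in group MI, and Ace, which makes the peptide, at 3.63, 2.25 and 3.59 against 22.7, 15.3 and 11.2. Enpep, an aminopeptidase that degrades it, was at 57.4, 42.3 and 65.8 in group Sham and 14.9, 10.7 and 13.3 in group MI. All MI rats were above all Sham rats in Agtr1a and Ace and below them in Enpep. Log2 fold changes were 2.92 ± 0.33, 2.03 ± 0.28 and -1.999 ± 0.21 (SE), with adjusted p-values of 0.00144, 0.00247 and 0.00125 by limma with Benjamini-Hochberg adjustment. Hsd11b1, which activates glucocorticoids, was also higher (1.59 ± 0.34), as was the lysosomal protease gene Ctsd (1.36 ± 0.19), so that 4 of the tested genes were higher and 1 was lower.

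**Figure D4:**
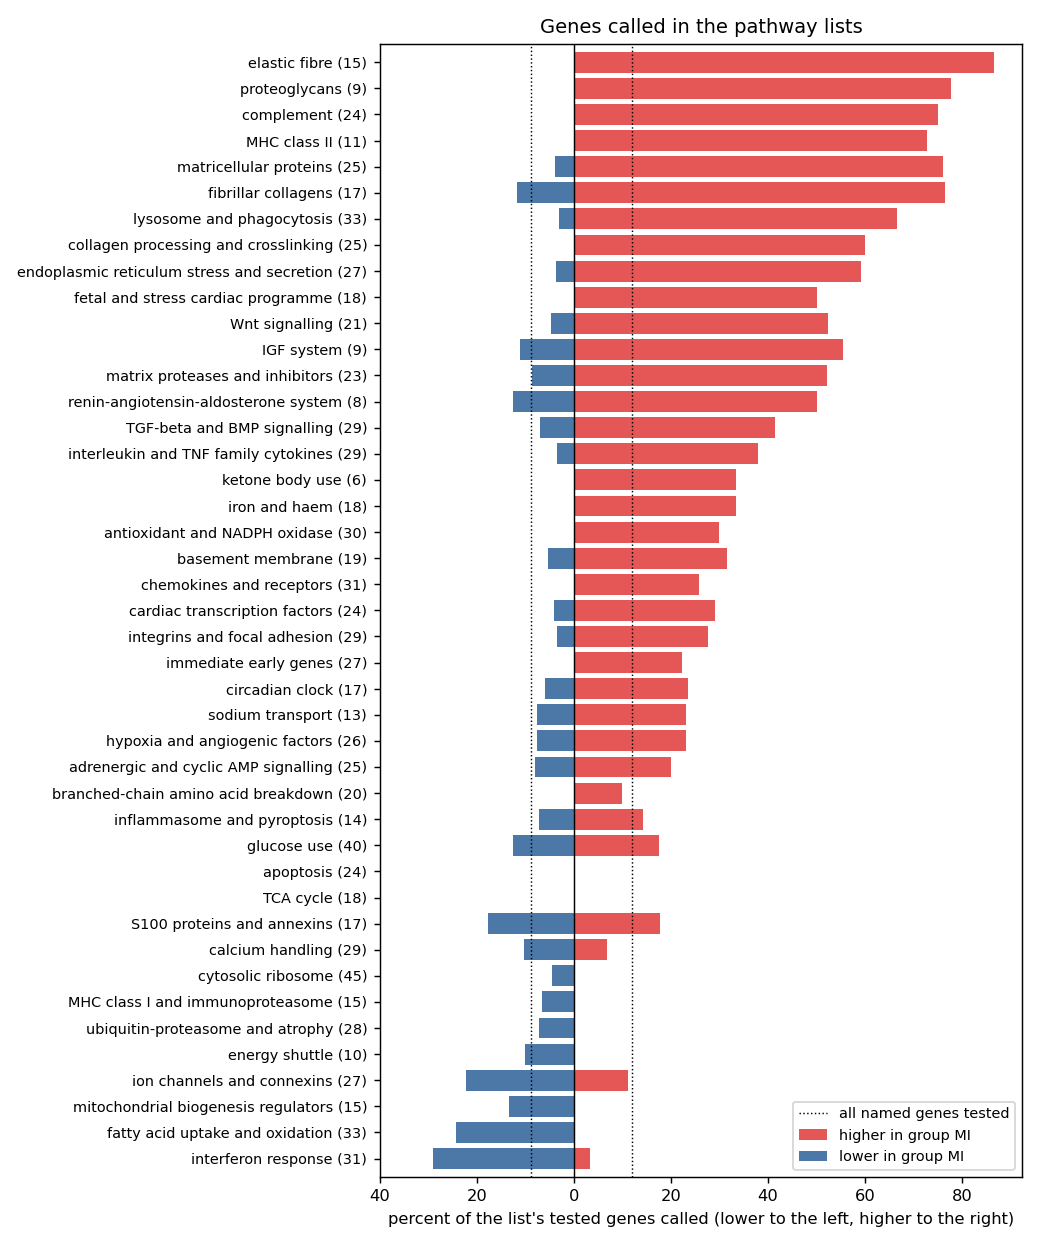
Percent of the tested genes in each of 43 pathway lists that were called higher (red, to the right) or lower (blue, to the left) in group MI, with the number of genes tested in brackets and dotted lines at the shares of all named genes (11.9% higher and 8.93% lower). Elastic fibre, proteoglycan, complement and MHC class II lists have the longest red bars without lower calls, the interferon response and fatty acid lists have the longest blue bars, and apoptosis and TCA cycle genes have none.

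Macrophage genes were higher in most cases. Of 27 tested genes 23 were higher and 1 lower, with a median log2 fold change of 2.33. Lyz2, lysozyme, was at 283, 90.8 and 60.02 in group Sham and 1146, 1998 and 1189.7 in group MI, and C1qa and C1qb, which encode chains of complement C1q, at 63.5, 24.2 and 22.6 against 200.2, 483 and 257 and at 36.97, 21.6 and 21.1 against 202, 385 and 193. Gpnmb, a gene of lipid-laden and scar macrophages, was at 16.2, 2.07 and 0.788 against 76.03, 101 and 76.7. Sham rat 1 was the highest Sham rat in these 4 genes, still below every MI rat. Log2 fold changes were 3.58 ± 0.55, 3.12 ± 0.47, 3.22 ± 0.33 and 4.22 ± 0.75 (SE), with adjusted p-values of 0.00356, 0.00321, 0.00123 and 0.00581 by limma with Benjamini-Hochberg adjustment. Genes of resident, scavenging macrophages, such as Cd163 (3.48, 4.78 and 3.17 in group Sham and 16.7, 18.8 and 9.43 in group MI), rose alongside those of monocyte-derived cells, such as Trem2 (7.12 against 28.2), named after its values were seen. Spp1, osteopontin, also on the macrophage list, was at 45.2, 0.705 and 3.74 in group Sham and 242, 9.43 and 93.1 in group MI. It overlapped between the groups and was not called (adjusted p = 0.133 by limma with Benjamini-Hochberg adjustment). Fabp5, the 1 lower gene of the list, was at 166, 254 and 195 against 52.6, 21.1 and 31.1, and capillary endothelium expresses it too.

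Lysosome and phagocytosis genes were higher in 22 of 33 and lower in 1 (median 1.45), and the lower gene was Lpl. The scavenger gene Cd68 was at 19.4, 3.22 and 4.39 in group Sham and 35.7, 68.7 and 43.6 in group MI (2.65 ± 0.58, SE; adjusted p = 0.01196 by limma with Benjamini-Hochberg adjustment). Ctss, a cathepsin that prepares antigen for MHC class II, was at 25.6, 8.46 and 6.997 against 148, 243 and 153. In the MHC class II list 8 of 11 tested genes were higher (median 2.47), among them Cd74, the invariant chain, at 260.3, 98.5 and 99.7 in group Sham and 650.4, 1618 and 1002 in group MI, and RT1-Da, a rat class II alpha chain, at 36.7, 9.42 and 7.58 against 106, 257 and 159. Adjusted p-values of Ctss, Cd74 and RT1-Da were 0.00168, 0.00423 and 0.00481 by limma with Benjamini-Hochberg adjustment. The RT1 genes are close copies of each other, which leaves single members uncertain. MHC class I and immunoproteasome genes held 1 lower gene among 15 (6.67% against 8.93% of all named genes), the proteasome gene Psmb10 (-1.21), and the others were not called, with a median of -0.17 (0.88 when scaled to all reads, and 0.07 without MI rat 1). That call was lost without Sham rat 2 or MI rat 1 (log2 fold change -1.08 to -0.91).

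The complement list was higher in 18 of 24 tested genes, 75% against 11.9% of all named genes, with a median log2 fold change of 2.48. C7, part of the membrane attack complex and known from fibroblasts, was at 33.7, 38.5 and 17.4 in group Sham and 761, 958 and 590.4 in group MI. C3, the component on which the cascade converges, was at 0.8104, 1.05 and 0.306 in group Sham and 8.74, 106 and 17.4 in group MI, C4b at 2.28, 0.843 and 0.555 against 55.5, 277 and 86.2 and C6 at 1.56, 1.66 and 0.719 against 14.6, 193 and 55.8. MI rat 2 had the highest value of all rats in the 4 genes, by a wide margin in C3, C4b and C6, and the groups did not overlap in any. Log2 fold changes were 4.69 ± 0.32, 3.98 ± 0.80, 5.72 ± 0.58 and 4.61 ± 0.81 (SE; adjusted p = 0.000953, 0.00864, 0.00123 and 0.00548 by limma with Benjamini-Hochberg adjustment). C4b has a near-identical copy, C4a, so reads may be split between them.

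Chemokine genes were higher in 8 of 31 tested, a count that ran from 4 without Sham rat 3 to 11 without Sham rat 1. Those that guide lymphocytes led. Cxcl13, which attracts B cells, was at 5.88, 7.79 and 2.79 in group Sham and 47.2, 121 and 54.5 in group MI. Ccl19 (10.5, 10.5 and 5.07 against 46.996, 98.6 and 85.6) and Ccl21 (247, 193 and 106 against 395, 1199 and 868) are the ligands of Ccr7 and rose without overlap. Log2 fold changes were 3.49 ± 0.43, 3.003 ± 0.35 and 2.11 ± 0.47 (SE), with adjusted p-values from 0.00163 to 0.0124 by limma with Benjamini-Hochberg adjustment. The monocyte attractant gene Ccl2 (0.73) and the neutrophil attractant gene Cxcl1 (-0.83), named after their values were seen, were not called.

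Cytokine genes of the interleukin and TNF families were higher in 11 of 29 and lower in 1 (median 0.80). Tnfsf13b, the survival factor BAFF of B cells, was at 0.974, 0.812 and 0.105 in group Sham and 7.602, 15.3 and 10.03 in group MI, and passed the expression filter through group MI alone. Il6st, the shared receptor chain of the IL-6 family, was at 8.38, 3.72 and 8.87 against 33.9, 50.99 and 38.7, and the TNF receptor gene Tnfrsf1b at 2.34, 2.09 and 1.73 against 10.3, 16.4 and 9.21. Il15, which muscle and endothelium express, was lower, at 86.2, 115 and 92.4 in group Sham and 25.8, 14.7 and 27.6 in group MI (-2.10 ± 0.25, SE). Adjusted p-values of these genes were 0.00142, 0.00199, 0.00148 and 0.00176 by limma with Benjamini-Hochberg adjustment. The IL-1 receptor antagonist gene Il1rn was higher (1.89) and lost its call without Sham rat 2 (log2 fold change 1.77).

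Lymphocyte genes rose unevenly among MI rats. Of 17 tested T and NK cell genes 4 were higher (median 1.19, and 0.50 without MI rat 2), a count that ran from 1 without Sham rat 3 or MI rats 2 or 3 to 7 without MI rat 1. Cd3e, a chain of the T cell receptor complex, was at 0.191, 1.36 and 0.0758 in group Sham and 1.69, 19.5 and 4.699 in group MI, and Cd247, another chain, at 0.336, 0.628 and 0.0665 against 1.09, 8.46 and 2.35. Cd247 passed the expression filter through group MI alone. MI rat 2 held most of the signal, MI rat 1 was close to the highest Sham rat, and the calls of Cd3e (2.23) and Cd247 (1.61) were lost without Sham rats 1, 2 or 3 or MI rats 2 or 3 (log2 fold change 1.44 to 2.59) for Cd3e and without Sham rats 1, 2 or 3 (log2 fold change 1.46 to 1.76) for Cd247. Cd4, which rat macrophages carry as well as helper T cells, was at 4.75, 1.06 and 1.43 in group Sham and 48.3, 124 and 53.8 in group MI (4.51 ± 0.48, SE; adjusted p = 0.00134 by limma with Benjamini-Hochberg adjustment), and its call held in each fit with 1 rat left out.

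In the B and plasma cell list 6 of 11 tested genes were higher (median 1.70), a count that ran from 3 without Sham rats 2 or 3 or MI rats 2 or 3 to 5 without MI rat 1. Jchain, which joins secreted antibodies, was at 0.796, 3.45 and 1.42 in group Sham and 23.9, 2881 and 503 in group MI, the largest rise among the genes named for size of change (6.95 ± 1.53, SE; adjusted p = 0.0123 by limma with Benjamini-Hochberg adjustment). Ighm, the heavy chain of IgM, was at 4.09, 3.07 and 2.66 in group Sham and 10.5, 713 and 122 in group MI. In reads, Jchain had 4, 17 and 6 in Sham rats 1 to 3 and 222, 24419 and 4630 in MI rats 1 to 3. MI rat 2 was the highest and MI rat 1 the nearest to group Sham. The call of Ighm (4.57) was lost without Sham rats 1, 2 or 3 or MI rat 3 (log2 fold change 4.42 to 4.70). Xbp1, a secretory regulator of plasma cells and other cells, was higher in every MI rat (28.9, 33.1 and 30.9 in group Sham and 81.9, 171 and 76.8 in group MI).

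Other blood cell types left weaker traces. Only 6 of 15 neutrophil genes could be tested, 2 were higher, Trem1 (1.87) and Csf3r (1.08), both shared with monocytes, and these calls were lost without Sham rat 3 (log2 fold change 1.58) for Trem1 and without Sham rats 1, 2 or 3 (log2 fold change 0.99 to 1.22) for Csf3r. The granule genes Mpo and Elane and the receptor gene Fpr1 were listed at 0 in all Sham rats. Their group means in group MI were 0.106, 0.198 and 0.0286. What these low values say about the number of neutrophils was not tested. The mean log2(FPKM + 1) of the 15 neutrophil genes was 1.32, 1.44 and 0.763 in Sham rats 1 to 3. In MI rats 1 to 3 this mean was 1.76, 1.54 and 1.16, so that the groups overlapped. Among 8 dendritic cell genes 3 were higher and 1 lower, and the higher count ran from 1 without MI rats 2 or 3 to 3 without Sham rat 2. Clec10a was at 24.8, 22.2 and 19.98 in group Sham and 80.6, 106 and 64.1 in group MI (1.83 ± 0.20, SE) and Flt3 at 0.731, 0 and 0.302 against 3.79, 2.05 and 2.33, whereas Zbtb46, which endothelium also expresses, was lower (-1.13) and lost its call without MI rat 2 (log2 fold change -0.91). Adjusted p-values of Clec10a and Flt3 were 0.00144 and 0.00828 by limma with Benjamini-Hochberg adjustment, and Flt3 passed the expression filter through group MI alone. The higher call of Ccr7 (1.11) was lost without Sham rats 1 or 3 or MI rats 2 or 3 (log2 fold change 0.80 to 1.17). In the mast cell list 1 of 9 genes, Gata2, was lower, at 25.1, 33.4 and 31.7 against 8.62, 5.395 and 8.24, and endothelium uses this factor too. The mast cell proteases Cpa3 (7.13 against 6.999) and Tpsb2 (8.84 against 7.55) had close group means, and their values overlapped.

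Genes of the interferon response, which viral infection and released nucleic acids switch on, were lower more often than higher. Of 31 tested genes 9 were lower, 29% against 8.93% of all named genes, and 1 was higher, with a median log2 fold change of -0.80, which turned to 0.28 when values were scaled to all reads, still below the median of 0.97 of all genes on that scale. The count of lower genes ran from 7 without MI rat 1 to 12 without MI rat 3 and fell to 3 of 31, near the share of all named genes, when all 9 rats of the series were put in 1 fit, where the calls of Rsad2 and Isg15 below were among those lost. Rsad2, viperin, was at 24.9, 14.03 and 17.7 in group Sham and 2.696, 2.64 and 6.55 in group MI, and Herc6 at 20.2, 33.6 and 24.4 against 4.48, 3.12 and 7.38. Cmpk2 was at 13.5, 14.2 and 12.3 in group Sham and 2.84, 2.73 and 3.79 in group MI, and Isg15, the ubiquitin-like modifier, at 36.5, 51.1 and 32.9 against 10.7, 12.3 and 21.2. Every MI rat lay below every Sham rat in these 4 genes, with log2 fold changes of -2.06 ± 0.34, -2.21 ± 0.30, -1.80 ± 0.16 and -1.42 ± 0.28 (SE) and adjusted p-values of 0.004398, 0.00244, 0.00102 and 0.00817 by limma with Benjamini-Hochberg adjustment. Irf8, a factor of macrophages and dendritic cells, was the gene that was higher, at 11.2, 10.7 and 7.08 against 21.5, 37.9 and 25.6 (1.45 ± 0.26). Irf9 (-0.24), a signal carrier of the pathway that was named after its values were seen, was not called. The mean of the list was 4.33, 4.40 and 4.18 in Sham rats 1 to 3 and 3.23, 3.83 and 4.20 in MI rats 1 to 3, so that MI rat 3 lay within the range of group Sham.

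**Figure D5:**
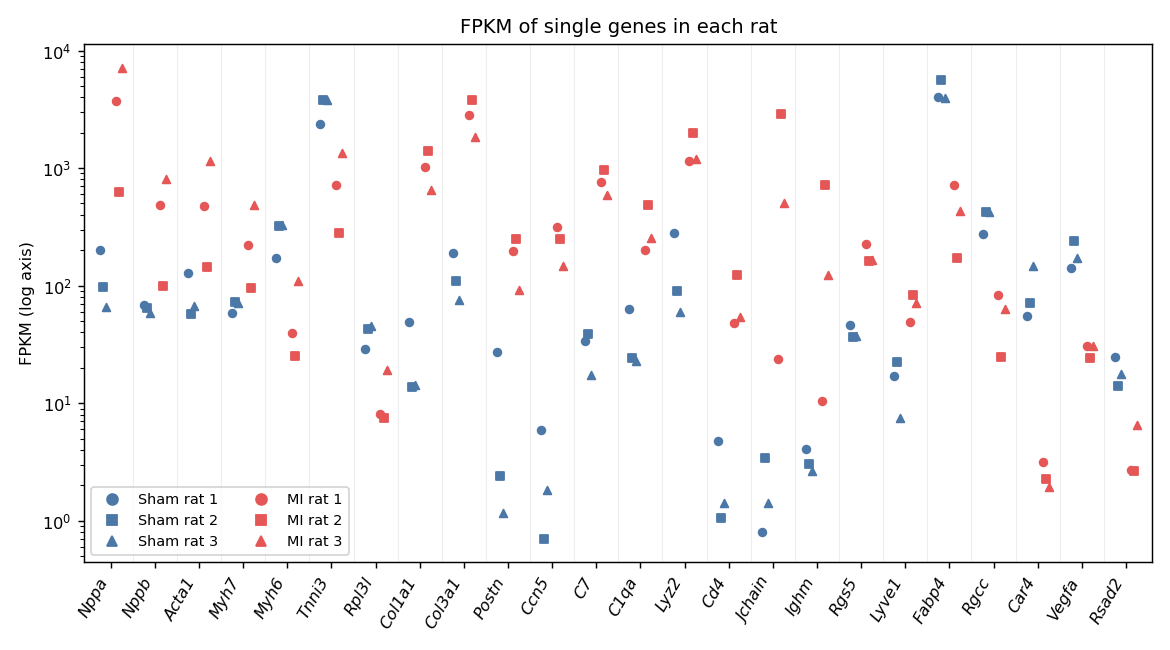
FPKM (vertical log axis) of 24 single genes in each rat, blue for group Sham and red for group MI, with circles, squares and triangles for rats 1, 2 and 3. From left to right stand muscle and stress genes, matrix and complement genes, immune genes, vessel genes and an interferon-induced gene. Jchain and Ighm show the widest spread among MI rats, and Car4 is far lower in all MI rats than in all Sham rats.

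Genes of the secretory pathway were higher in most cases. Of 27 tested genes of the endoplasmic reticulum 16 were higher and 1 lower (median 1.24). P4hb, which folds collagen and forms disulphide bonds, was at 80.999, 57.6 and 56.3 in group Sham and 265, 276 and 222 in group MI, and Creb3l2, a factor that expands the secretory pathway, at 2.604, 1.08 and 1.797 against 11.2, 12.5 and 9.39. Edem1, which clears misfolded proteins, was at 1.92, 3.85 and 2.44 against 12.9, 38.8 and 14.4. These rises did not overlap, with log2 fold changes of 1.96 ± 0.19, 2.12 ± 0.24 and 2.48 ± 0.42 (SE; adjusted p = 0.00105, 0.00147 and 0.00476 by limma with Benjamini-Hochberg adjustment). The chaperone gene Sdf2l1 rose (1.91) and lost its call without Sham rats 2 or 3 (log2 fold change 1.75 to 1.78). Ddit3, which encodes the death-promoting factor CHOP of prolonged stress, was lower, at 107, 99.6 and 82.01 in group Sham and 51.02, 23.3 and 52.1 in group MI (-1.25), a call lost without Sham rats 1 or 2 or MI rat 2 (log2 fold change -1.22 to -0.88).

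In the list of antioxidant and NADPH oxidase genes 9 of 30 were higher (median 0.63). Cybb, the catalytic subunit of the phagocyte oxidase, was at 10.7, 4.17 and 4.14 in group Sham and 32.2, 59.4 and 36.9 in group MI, Sod3, the extracellular superoxide dismutase, at 35.5, 15.8 and 28.9 against 184, 106 and 110.2, and Sod2, the mitochondrial one, at 39.9, 24.03 and 30.3 against 62.5, 77.3 and 74.7. Hmox1, haem oxygenase-1, was at 11.3, 7.65 and 4.86 against 30.2, 41.1 and 24.8. Adjusted p-values of the 4 genes were 0.00274, 0.00297, 0.00523 and 0.003905 by limma with Benjamini-Hochberg adjustment. Iron and haem genes were higher in 6 of 18, led by Steap3, an iron reductase (2.96, 1.85 and 2.84 in group Sham and 33.5, 35.1 and 26.9 in group MI), and Cp, ceruloplasmin (5.54, 3.96 and 4.702 against 40.6, 59.5 and 36.6). Both had adjusted p-values of 0.000953 by limma with Benjamini-Hochberg adjustment, the smallest that the fit gave to any gene named here.

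Apoptosis and proliferation genes held no call by limma, and inflammasome genes were called near the shares of all named genes. None of 24 tested apoptosis genes was called by limma with Benjamini-Hochberg adjustment, with 5 higher and 5 lower at an unadjusted p under 0.05, and 1 higher and 1 lower by voom on the recovered reads. Bax, which permeabilizes mitochondria, was at 44.9, 54.5 and 39.9 in group Sham and 25.5, 26.2 and 23.7 in group MI, below the fold threshold (-0.85 ± 0.15, SE; adjusted p = 0.00618 by limma with Benjamini-Hochberg adjustment), and every MI rat was below every Sham rat. Casp9 (-0.05 ± 0.16) and Bak1 (0.17 ± 0.19) were not called, and Bcl2, which opposes Bax, was under the expression filter at 0.418, 0.331 and 0.662 against 1.38, 1.98 and 0.989. In the inflammasome and pyroptosis list 2 of 14 genes were higher (14.3% against 11.9% of all named genes) and 1 lower (7.14% against 8.93%). Nlrp3, the sensor, was at 0.391, 0.376 and 0.192 in group Sham and 3.26, 3.63 and 3.41 in group MI (1.75 ± 0.19, SE; adjusted p = 0.00136 by limma with Benjamini-Hochberg adjustment) and Ninj1, which ruptures the membrane, at 1.28. Nlrp3 passed the expression filter through group MI alone, so its groups could not overlap, and it was not tested when an MI rat was left out. Casp4 was lower (-1.16) and lost its call without Sham rat 2 (log2 fold change -0.99).

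Of 25 tested proliferation genes none was called by limma with Benjamini-Hochberg adjustment, 1 was higher and 2 lower at an unadjusted p under 0.05, and 1 was lower by voom on the recovered reads. Mki67, present in dividing cells, was at 2.66, 12.2 and 3.72 in group Sham and 2.34, 3.01 and 1.44 in group MI. Sham rat 2 was the highest in this gene, as in the red cell genes, and without that rat the median of the list turned from -0.38 to 0.16 (0.41 with all rats when scaled to all reads). Ribosomal protein genes were not called in 43 of 45, with a median of -0.11 (0.999 when scaled to all reads). The lower genes were Rpl3l and Rplp2, the latter at 569, 356 and 675 in group Sham and 14.9, 50.8 and 11.2 in group MI (-4.58 ± 0.53, SE), while its partner genes Rplp0 (0.66) and Rplp1 (0.27) did not fall. Reads of ribosomal protein genes can be shared with processed copies elsewhere in the genome, so the value of Rplp2 is uncertain. In the ubiquitin-proteasome and atrophy list 2 of 28 genes were lower (7.14% against 8.93% of all named genes) and 0 higher (0% against 11.9%). The lower genes of this list were Trim63, the muscle ligase MuRF1, at 27.2, 72.1 and 38.03 in group Sham and 5.54, 2.15 and 10.1 in group MI (-2.82 ± 0.51, SE; adjusted p = 0.00605 by limma with Benjamini-Hochberg adjustment), and Asb2 (-1.83 ± 0.32).

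Transcription factor genes of the heart were higher in 7 of 24 and lower in 1, the higher count running from 4 without MI rat 3 to 7 without Sham rat 2 or MI rat 2. Foxo3, a regulator of atrophy and stress resistance, was at 0.564, 1.72 and 0.749 in group Sham and 9.45, 7.85 and 6.07 in group MI. Tcf21, the factor of cardiac fibroblasts, was at 3.99, 9.72 and 7.53 against 42.98, 31.3 and 26.5, and Runx1, which injured muscle and blood cells express, at 2.32, 0.516 and 0.401 against 6.33, 7.22 and 5.53. The groups were apart in these 3 genes, with log2 fold changes of 2.15 ± 0.27, 2.14 ± 0.31 and 1.93 ± 0.34 (SE; adjusted p = 0.001901, 0.00296 and 0.005698 by limma with Benjamini-Hochberg adjustment). The ventricular factor gene Irx4 was lower (-1.51), and Tbx20 was higher (1.70). The call of Irx4 was lost without Sham rat 2 or MI rats 1 or 2 (log2 fold change -1.43 to -1.21) and that of Tbx20 without Sham rats 1 or 3 (log2 fold change 1.54 to 1.67). Immediate early genes were higher in 6 of 27, a count that ran from 2 without Sham rat 2 to 7 without Sham rat 1. Egr2 was at 0.739, 0.301 and 0.702 in group Sham and 6.05, 3.15 and 4.196 in group MI, Ier3 at 21.3, 11.4 and 10.5 against 44.2, 36.7 and 35.9, and the calls of Fos (1.58) and Egr1 (1.53) were lost without Sham rats 2 or 3 or MI rats 2 or 3 (log2 fold change 1.25 to 1.49) for Fos and without Sham rats 2 or 3 or MI rats 2 or 3 (log2 fold change 1.08 to 1.60) for Egr1. Egr2 passed the expression filter through group MI alone.

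Clock genes differed between the groups in an uneven way. Of 17 tested genes 4 were higher and 1 lower, and the higher count ran from 2 without MI rats 1, 2 or 3 to 7 without Sham rat 2. Hlf, an output factor of the clock, was listed at 0 in all Sham rats and was at 4.08, 2.17 and 2.12 in group MI, at least 8.08-fold higher when 3 reads per Sham library are taken as the floor, which covers counting error only. Bhlhe41 was at 0, 2.53 and 0 in group Sham and 18.4, 9.01 and 12.3 in group MI, and Nfil3, which opposes these output factors, at 8.92, 9.99 and 9.91 against 1.85, 4.45 and 3.35. Nr1d1, a repressor of the clock, was at 3.37, 37.1 and 6.01 against 86.1, 42.8 and 61.2, where Sham rat 2 stood close to the MI rats, and its call (2.56) was lost without Sham rats 1 or 3 or MI rats 1, 2 or 3 (log2 fold change 1.92 to 2.80). The core genes Clock (-0.28), Per1 (-0.14) and Per2 (-0.17), named after their values were seen, were not called. The hour at which each heart was taken is not given in the sources used here, and its part was not tested.

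Adhesion and transport lists held single genes of note. Integrin and focal adhesion genes were higher in 8 of 29 and lower in 1, and the higher count ran from 5 without Sham rat 2 or MI rats 1 or 2 to 9 without Sham rat 1. Itgb5 (4.2995, 1.58 and 2.16 in group Sham and 30.6, 31.4 and 20.1 in group MI) and Itgav (1.55, 1.88 and 2.33 against 11.01, 8.704 and 5.99) form a receptor that releases TGF-beta and rose together, while Itga6, the laminin receptor of endothelium, was lower, at 53.9, 44.2 and 68.8 against 13.9, 14.8 and 16.6. Adjusted p-values were 0.00123, 0.00271 and 0.00129 by limma with Benjamini-Hochberg adjustment. Sodium transport genes were higher in 3 of 13 and lower in 1. The pump subunit gene Atp1b1 was at 15.8, 17.5 and 16.5 in group Sham and 49.8, 39.7 and 61.7 in group MI (1.52 ± 0.18, SE), and the cotransporter gene Slc12a2 was lower (-1.34 ± 0.20). S100 and annexin genes were higher in 3 and lower in 3 of 17, and the higher count ran from 2 without Sham rat 2 to 5 without Sham rat 1. S100a4, which fibroblasts and macrophages express, was at 149.7, 66.5 and 74.3 in group Sham and 229, 231 and 249 in group MI (1.37 ± 0.30), and Anxa3 was lower, at 81.2, 63.7 and 89.2 against 24.3, 23.8 and 23.999 (-1.64 ± 0.16). S100a13 and S100a16 were lower, with log2 fold changes of -1.08 and -1.02 that turned to 0.01 and 0.08 when scaled to all reads. Their calls were lost without Sham rat 2 or MI rat 2 (log2 fold change -0.997 to -0.97) for S100a13 and without Sham rat 1 or MI rat 1 (log2 fold change -0.95 to -0.85) for S100a16.

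Traces of tissue around the heart muscle were also measured. In the mesothelial and epicardial list 4 of 6 tested genes were higher, a count that ran from 0 without Sham rat 3 to 4 without MI rat 3. Msln, mesothelin, was at 1.49, 0.268 and 0 in group Sham and 13.3, 78.8 and 3.42 in group MI (3.55), highest in MI rat 2, and its call was lost without Sham rats 2 or 3 or MI rat 1 (log2 fold change 3.27 to 3.68). Aldh1a2, which makes retinoic acid in the injured epicardium, was at 2.62, 3.06 and 1.21 against 7.43, 22.4 and 7.47 (1.89), with a call lost without Sham rat 3 (log2 fold change 1.63). Wt1 was the 1 lower gene, at 37.9, 32.4 and 37.5 in group Sham and 10.3, 8.12 and 4.96 in group MI (-2.12 ± 0.24, SE; adjusted p = 0.001502 by limma with Benjamini-Hochberg adjustment), and coronary endothelium expresses it as well. Adipocyte genes were lower in 3 and higher in 1 of 7. The lower genes were Lipe, Lpl and Pparg (-1.29 ± 0.17), which muscle or endothelium also expresses, and the defining genes Adipoq and Plin1 were listed at 0 in all Sham rats and had means of 0.3301 and 0.142 in group MI. Cfd, adipsin, was the gene that was higher (2.07) and lost its call without Sham rats 2 or 3 (log2 fold change 1.93 to 2.03). Of 11 Schwann cell and neuron genes 2 were higher, Ncam1 (2.25 ± 0.37) and Uchl1 (1.99 ± 0.39), both of which stressed heart muscle also expresses, and the other 9 were not called.

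Some of the largest changes lay outside every list. The rule for naming them asked for a mean FPKM of at least 10 in the higher group and no overlap between the groups. Serpina3n, a protease inhibitor of injury responses, was at 0.708, 0.0277 and 0.437 in group Sham and 20.7, 89.2 and 18.5 in group MI (4.63 ± 0.57, SE), and passed the expression filter through group MI alone. Trh, the gene of thyrotropin-releasing hormone, was at 1.31, 0.07001 and 0.0816 in group Sham and 27.9, 81.1 and 15.9 in group MI (4.62 ± 0.59). Both were highest in MI rat 2, with adjusted p-values of 0.00187 and 0.00202 by limma with Benjamini-Hochberg adjustment.

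On the other side, Dhrs7c, a dehydrogenase of the sarcoplasmic reticulum, was at 26.95, 47.3 and 42.01 in group Sham and 0.682, 2.34 and 3.85 in group MI, and Rnf207, a ubiquitin ligase of heart muscle, at 32.5, 101 and 45.6 against 4.34, 1.39 and 7.07. C1qtnf9, a relative of adiponectin, was at 118, 97.04 and 85.4 against 13.7, 6.82 and 6.86. The calcium-binding protein gene Cabp1 (26.7, 36.5 and 25.5 against 2.18, 0.639 and 1.24) and the phosphodiesterase gene Pde4c (15.1, 34.2 and 31.003 against 1.46, 0.655 and 1.62) were expressed clearly in group Sham and close to 0 in group MI. Log2 fold changes of these 5 genes were -3.69 ± 0.40, -3.53 ± 0.54, -3.37 ± 0.27, -3.73 ± 0.27 and -3.58 ± 0.34 (SE), with adjusted p-values from 0.000953 to 0.00344 by limma with Benjamini-Hochberg adjustment. Rbm39, a splicing factor gene, was at 35.2, 111 and 68.7 in group Sham and 2.48, 4.22 and 2.25 in group MI (-4.07 ± 0.41). These named falls kept their calls in each fit with 1 rat left out. The mitochondrial genes COX1 (-3.61), ND4 (-3.48) and ATP6 (-3.41) were named by the same rule, and their levels follow the mitochondrial share of the reads given above.

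MicroRNA loci were also among the largest falls, although a library made from poly-A RNA reads their host transcripts and not the mature microRNA. Mir133a-2, a locus of muscle, had 37, 26 and 40 reads in Sham rats 1 to 3 and 0, 0 and 3 in MI rats 1 to 3. Mir3582 had 41, 25 and 9 reads in group Sham and none in group MI, at least 15.3-fold lower when 3 reads per MI library are taken as the floor. With so few reads over so short a gene, these values carry a large counting error.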

How the data were processed

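Poly-A selected RNA of 9 rats was sequenced by the authors in paired ends, and 3 Sham and 3 MI rats, named as biological replicates in the labels, were compared here. The submitters' processing notes name HISAT2 (version 2.0.5), StringTie (1.3.3b), featureCounts (1.5.0-p3) and DESeq2, and the genome build is not given in the sources used here. The authors deposited FPKM per gene and rat. The 37 genes of the mitochondrial genome were identified by name. In all 18896 genes with values in at least 4 rats, FPKM steps gave whole reads (tolerance 0.02 reads), from which depth was recovered, and 0 value columns were left out.

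Genes that reached an FPKM of 1 in 3 or more of the 6 rats were tested with limma 3.58.1 (R 4.3.3, trended empirical Bayes) on log2(FPKM + 1), and p-values were adjusted by Benjamini-Hochberg over 13485 genes and unnamed loci. The procedure was tested on simulated data. Ratios, taken on log2(FPKM + 1), were tested by exact permutation (scipy 1.17.1), which with 3 against 3 rats cannot give a p below 0.1.

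The 62 gene lists (19 of cell types, 43 of pathways) and the comparison were chosen with earlier results of these data known. Of 1395 list genes 1355 were matched, and 40 are not analysed here. Values of some further genes are not reported here. Genes were named if they were anchor genes of a fixed list, among the 4 largest called changes of a list in each direction, or among the 15 largest called changes in each direction with a mean FPKM of at least 10. Other genes were chosen after their values were seen. Alternatives covered scaling, pseudocount, filter, fold threshold, samples in the fit, replicate block, robust variances, voom on recovered reads and leaving out each rat.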

Additional observations from a re-analysis of the deposited data

Results flagged for a closer look

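The deposited table also held loci without a gene name, which enter no comparison above. Of 860 that were tested with limma and Benjamini-Hochberg adjustment, 53 were higher and 211 lower in group MI than in group Sham. Of the 12625 named genes tested, 1503 (11.9%) were higher and 1128 (8.93%) lower. Lower calls were thus the more frequent among unnamed loci, and higher calls among named genes. The unnamed loci are signal outside the named genes, called at the same thresholds.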

How the results depend on the processing

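Scaling had the strongest effect on the counts. With 1503 named genes higher and 1128 lower in the comparison as reported, scaling to all recovered reads gave 6137 higher and 229 lower, which follows from the larger share of mitochondrial reads in group Sham, and 1534 and 1313 when taken relative to the median gene. On that scale the median of the interferon response turned to 0.28, S100a13 to 0.014 and S100a16 to 0.081. Dropping the fold threshold gave 2553 and 2344. The remaining settings stayed within 1.5 times of both counts, among them no filter (1326 and 1021), a filter at an FPKM of 5 (1042 and 907), a pseudocount of 0.1 (1739 and 1353) and voom on recovered reads (1664 and 1365). Leaving out 1 rat gave 1122 to 1542 higher and 926 to 1209 lower genes.

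Of 247 named genes that were called, 204 kept their call when scaled to all recovered reads, 41 lost it and 2 reversed, and 193 kept it in every fit with 1 rat left out that tested them. The replicate number as a block gave 1479 higher and 1107 lower genes, and 5 named genes lost their call. With all 9 rats in 1 fit, Csf3r, Rsad2, Isg15, Fos and Egr1 lost their call. Correlations of deviations between rats of the same number were -0.003, -0.003 and 0.074, so the numbers were not taken as pairs, and Sham rat 2 did not correlate best with its own number. Genes under the expression filter were not tested, 9 of 15 neutrophil genes among them, and whether deeper libraries would bring them in was not tested.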

Other observations

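Further ratios of related genes differed widely in size. Tnni1, the fetal troponin I, over Tnni3 was 0, 7.94e-05 and 2.34e-05 in Sham rats 1 to 3 and 0.00174, 0.00157 and 0.00321 in MI rats 1 to 3, so that the fetal form stayed a trace in every rat (two-sided exact permutation p = 0.1, the smallest possible). That test used FPKM + 1, where the added 1 weighs heavily on a gene as low as Tnni1. Nppa over Myh6 was 1.15, 0.301 and 0.2003 in Sham rats 1 to 3 and 94.4, 24.8 and 65.6 in MI rats 1 to 3, with no overlap (exact permutation p = 0.1). In all, 13 ratios were computed, and none can pass a threshold of 0.05 with 3 rats a group.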
